A study of Caenorhabditis elegans with 55 samples.

Results

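Histone genes encode the proteins around which nuclear DNA is wound. The genes described here are all those of the *C. elegans* tables whose symbol starts with his-: 72 gene IDs with 50 symbols. The small RNA tables list antisense reads for 20096 protein-coding genes, and 19391 genes are shared by the mRNA tables; all 72 IDs are in both. By type they were 1 gene for the linker histone H1, 17 for H2A, 16 for H2B, 15 for H3, 16 for H4, 5 for the H3 variant H3.3 and 2 of unassigned type. Of the H2A, H2B, H3 and H4 genes, 61 are the clustered, replication-type core genes, and his-35 (H2A), his-41 (H2B) and his-37 (H4) are the genes of these types that carry an intron.

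Copies of a histone gene can be nearly identical, so reads cannot always be given to a particular copy. Of the 72 IDs, 36 share 14 symbols. By their antisense small RNAs, 25 IDs fell into 11 sets with the same values in every library, which left 58 distinct profiles. By mRNA, 28 IDs fell into 11 such sets, which left 55. Values of single copies within these sets are therefore uncertain, and counts are given over IDs, with distinct profiles beside them where they matter.

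The H2A, H2B, H3 and H4 proteins form the nucleosome core, H1 binds the linker DNA between nucleosomes, and H3.3 is deposited outside of DNA replication. Replication-dependent core histone mRNAs are made in S phase and in most animals end in a conserved stem-loop, bound by the stem-loop binding protein (CDL-1 in worms), in place of a polyA tail. CSR-1 is a worm Argonaute, a protein that carries a small RNA as a guide, and its small RNAs (22G-RNAs) are antisense to germline mRNAs. It has a long isoform, CSR-1a, with an N-terminal stretch that the short isoform, CSR-1b, lacks. ALG-3 and ALG-4 are Argonautes of the sperm-producing germline that carry 26G-RNAs, and WAGO-4 and WAGO-10 carry 22G-RNAs.

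Small RNAs were sequenced from immunoprecipitates (IP) of tagged or antibody-bound Argonautes and from the total RNA of the same lysates (input), with 2 IP and 2 input libraries for each of 10 strains. PolyA-selected mRNA was sequenced from a csr-1 mutant and wild type, with 3 libraries for each strain at 25 C and at 20 C. Every library came from whole worms at the L4 larval stage, and the small RNA worms grew at 20 C. No label says that replicates came from separate cultures, so p-values measure the spread between these samples, which may be technical.

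The IPs labelled CSR-1a came from JMC151, which carries the csr-1 allele tor160[csr-1 exon1::gfp::3xflag], from GR3035, mgIs75[rpn-2::gfp]; mgTi14[pbs-5::mcherry], whose csr-1 carries no tag, and from GR3039, csr-1(mg657[G91R]), a missense mutant. The extraction protocol names both anti-GFP beads and a rabbit antibody to CSR-1a, while the sample labels name GFP beads for every IP, also for GR3035, GR3039 and JMC248, which list no GFP on the Argonaute. JMC161 has the alleles unc-119(ed3) and csr-1(tm892) and the transgene mgTi11[rpl-28::csr-1a exon1::gfp], named for rpl-28, a ribosomal protein gene. JMC101, csr-1(tor67[gfp::3xflag::csr-1]), is labelled CSR-1, and JMC164, whose csr-1 carries tor67[csr-1 exon2::gfp::3xflag] and the stop codon mg660[G120*], is labelled CSR-1b. The other IPs were of WAGO-4 from JMC223, wago-4(tor117[gfp::3xflag::wago-4]), ALG-3 from JMC205, alg-3(tor141[gfp::3xflag::alg-3]), ALG-4 from JMC207, alg-4(tor143[gfp::3xflag::alg-4]), and WAGO-10 from JMC248, wago-10(tor162[3xflag::wago-10]). The mutant of the mRNA libraries was also JMC164, so by its genotype label it carries both the tag and the stop codon, and their effects on mRNA cannot be told apart. The titles of these mutant libraries name another allele, csr-1a(tor159), while their genotype label gives mg660[G120*]; the labels do not settle which holds. N2, the wild-type Bristol strain, carries neither tag nor mutation.

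Small RNA values are RPM, reads scaled to a total of 1000000 in each library, and the estimated depth was 325376 reads in JMC223 input 2 and 1302211 to 30284492 in the others, so 1 read in JMC223 input 2 was worth 3.07 RPM. The JMC151 libraries held 1302211 to 1562177 reads each. The mRNA libraries held 7457517 to 18775025 counts. GFP, a check of the tag, had 172 to 772 counts in the 6 JMC164 libraries and 0 or 1 in the 6 N2 libraries. JMC164 20 C replicate 3 stood apart from the other libraries of its group, with a correlation of log2 CPM (counts scaled the same way) of 0.947 and 0.954 to them, against 0.994 between those. Its 11 germline markers summed to 218.1 CPM, against 1117 and 1656 CPM in the other JMC164 20 C libraries. N2 20 C replicate 3 also differed, at 923.2 CPM against 289.5 and 330.1 CPM. The 13 oocyte markers summed to 2326 to 6900 CPM in the 6 libraries at 25 C, against 130.3 to 904 CPM in the 6 at 20 C, although all libraries are labelled L4.

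Antisense small RNAs of the core histone genes were many times more abundant in the IPs labelled CSR-1a than in their inputs. Over the 61 clustered core IDs, the summed antisense level was 5170 and 3469 RPM in the JMC151 IPs, against 466.8 and 214.2 RPM in the inputs. In GR3035 it was 4738 and 4640 RPM in the IPs, against 447.2 and 487.5 RPM in the inputs. The ratio of the means was 12.7 in JMC151 and 10.0 in GR3035, and 13.04 and 10.1 when identical copies were summed once. In the G91R mutant GR3039 the sum was 2089 and 1413 RPM in the IPs, against 428.2 and 367.2 RPM in the inputs, a ratio of 4.40. The inputs of all 10 strains spanned 214.2 to 487.5 RPM, so the strains differed in their IPs more than in their inputs.

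In the other CSR-1 IPs and in WAGO-4 the same sum exceeded the input by less. It averaged 1254 ± 164 RPM in the JMC161 IPs and 327.4 ± 35.2 RPM in the inputs (SD, n = 2 each), a ratio of 3.83. The ratio was 3.22 in WAGO-4, 2.75 in JMC101 and 2.49 in JMC164. These ratios are in RPM of all small RNA. As a mean share of all antisense coding RPM, the sum rose from 0.108% in the JMC161 inputs to 0.168% in the IPs. The share did not rise in WAGO-4 (0.103% in the inputs, 0.1015% in the IPs), JMC101 (0.0909%, 0.0878%) or JMC164 (0.0845%, 0.0819%). In ALG-3 the sum was lower in the IPs, at 176.9 ± 8.56 RPM, than in the inputs, at 316.5 ± 12.6 RPM (SD, n = 2 each), a ratio of 0.559, and the ratio was 0.568 in ALG-4. In WAGO-10 it was 0.98, with 345.1 and 366.7 RPM in the IPs and 346.1 and 380 RPM in the inputs, which overlap. An exact permutation test of 2 against 2 libraries cannot reach 0.05, so these sums have no p-value, but the IP and input libraries did not overlap in any strain other than JMC248.

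**Figure D1:**
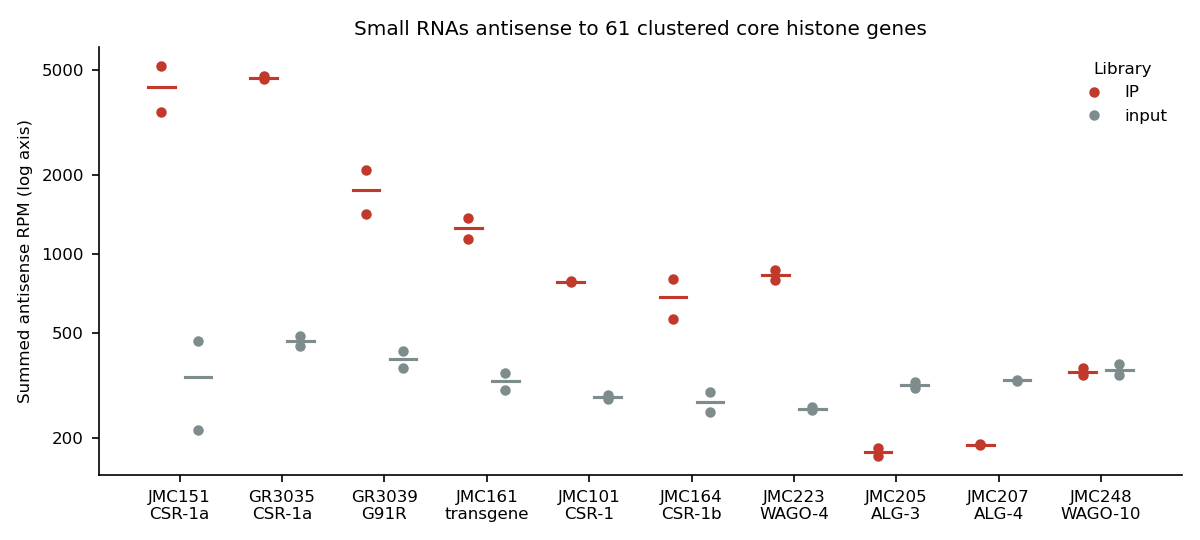
Summed antisense small RNA level of the 61 clustered core histone IDs, in RPM on a log axis, for each IP library (left of each pair) and input library (right), with bars at the mean of 2 libraries. The IPs of JMC151 and GR3035 lie between 3469 and 5170 RPM, and the IPs of ALG-3 and ALG-4 lie below their inputs.

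The excess in the CSR-1a IPs was in antisense RNA. Sense reads of the same core genes summed to 98.43 and 88.76 RPM in the JMC151 IPs, against 204.2 and 129.4 RPM in the inputs, and to 24.09 and 22.62 RPM in the GR3035 IPs, against 29.94 and 39.95 RPM in the inputs. The core genes made up 1.327% and 0.9904% of all antisense coding RPM in the JMC151 IPs, against 0.1449% and 0.1087% in the inputs. The mean share was 1.02% in the GR3035 IPs and 0.132% in the inputs, and 0.564% and 0.128% in GR3039.

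Gene by gene, a feature was called enriched when its limma adjusted p was under 0.05 and its log2 fold change, on the scale of log2(RPM + 1), was 1 or more, and depleted when that was -1 or less. In JMC151, 52 of the 57 histone IDs with enough reads were enriched and 2 depleted, against 42.5% of all antisense coding features enriched and 15.4% depleted. In GR3035, 52 of 64 were enriched and 1 depleted (33.2% and 11.6% of all features). In GR3039 the counts were 40 and 1 of 62 (16.7% and 6.82%). The median log2 fold change of the IDs with enough reads was 2.79 in JMC151, 2.63 in GR3035 and 1.45 in GR3039, and that of all features was 1.03, 0.53 and 0.17. A gene had to have reads in some library to be counted here, which a gene enriched in the IP does more easily, so these counts describe the measured IDs and do not cover the rest. In distinct profiles they were 45 of 50 in JMC151, 42 of 53 in GR3035 and 31 of 52 in GR3039. Without JMC151 IP 1 or IP 2 the enriched IDs there numbered 19 and 23, and without the filter on low values 0, with 49 at an unadjusted p under 0.05 in limma.

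In the other CSR-1 IPs the histone count was at or below the share of all features. JMC101 enriched 26 of 50 IDs and depleted 4 (54.5% and 19.5% of all features), JMC164 enriched 25 of 53 and depleted 3 (50.7% and 19.4%), and JMC161 enriched 26 of 62 and depleted 3 (56% and 13.3%). Without JMC101 IP 1 or IP 2 the enriched IDs there numbered 17 and 16. WAGO-4 enriched 21 of 42 and depleted 1 (68.2% and 5.25%), and without either of its IPs 10. The WAGO-4 IPs moved the centre of all features most, by a log2 shift of -1.26 under TMM scaling (trimmed mean of M-values), which left 7 enriched IDs. ALG-3 enriched 2 of 59 and depleted 15 (28.9% and 31%), ALG-4 enriched 3 of 57 and depleted 15 (33.1% and 33.6%), and WAGO-10 enriched 1 of 44 and depleted 2 (10.4% and 8.98%).

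The enriched genes overlapped between IPs. JMC151 and GR3035 shared 43 enriched IDs, 82.7% of each list. Most measured IDs were enriched in these strains, 52 of 57 in JMC151 and 52 of 64 in GR3035. A large overlap of any list with theirs therefore follows from the call rates alone. The overlap over all features is not given here, so these shares do not show that the strains agree. GR3039 shared 38 with GR3035, 95% of the GR3039 list and 73.1% of the GR3035 list. JMC151 and JMC164 shared 24, which is 46.2% of the JMC151 list and 96% of the JMC164 list. Of the 72 IDs, 33 were enriched in all of JMC151, GR3035 and GR3039. Of these 33, 12 were also enriched in all of JMC101, JMC164 and JMC161, and 11 in none of those. The 11 include IDs with too few reads in some of those IPs, such as his-2 in JMC101 and JMC164. The matching split over all features is not given here, so the 11 are not shown to be particular to the CSR-1a IPs. At the other end, 11 IDs were enriched in no IP, and 5 of them, both his-30 IDs, both his-49 IDs and his-69, had too few reads in every IP.

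Every core type was represented in the CSR-1a IPs. In JMC151, 10 of 10 clustered H2A IDs, 12 of 12 H2B, 11 of 13 H3 and 12 of 13 H4 were enriched. In GR3035 these were 9 of 14, 11 of 12, 13 of 13 and 14 of 15, and in GR3039 10 of 13, 7 of 13, 12 of 13 and 10 of 13. The summed level of the 15 H3 genes was 1847 ± 580 RPM in the JMC151 IPs and 80.27 ± 35.4 RPM in the inputs, a ratio of 23.0, and 2312 ± 118 RPM in the GR3035 IPs and 140.5 ± 19.6 RPM in the inputs, a ratio of 16.5 (SD, n = 2 each). The ratio in JMC151 was 11.4 for H2B, 8.40 for H4 and 7.11 for H2A, and in GR3035 it was 9.05, 6.56 and 5.46. H3 thus had the highest ratio of the 4 types in both strains, with no test of the difference between types. The H3 ratio was also the highest of the 4 in GR3039 (7.30), JMC161 (5.36), JMC101 (3.26) and JMC164 (2.97). In JMC101 and JMC164 the H2A ratio was close to it, at 3.11 and 2.93. Among IDs with enough reads in the other CSR-1 IPs, the H2A genes had the highest share of enriched IDs. These were 6 of 7 in JMC101, 7 of 9 in JMC164 and 8 of 10 in JMC161. Of the H2B IDs, 2 of 10, 3 of 11 and 6 of 15 were enriched in these strains, again with no test between types. H3 had 6 of 11, 5 of 11 and 4 of 13 there, and H4 9 of 13, 7 of 13 and 5 of 15. The clustered H2A genes have 16 IDs and the H4 genes 15, so fewer of the H2A IDs were measured. An ID high in the IP passes the read filter more easily, so these shares do not rank the types over all their IDs. The H4 gene his-31 was an exception in JMC151, with 1.96 and 6.297 RPM in the IPs against 17.74 and 13.09 RPM in the inputs (log2 fold change -1.81, SE 0.57).

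**Figure D2:**
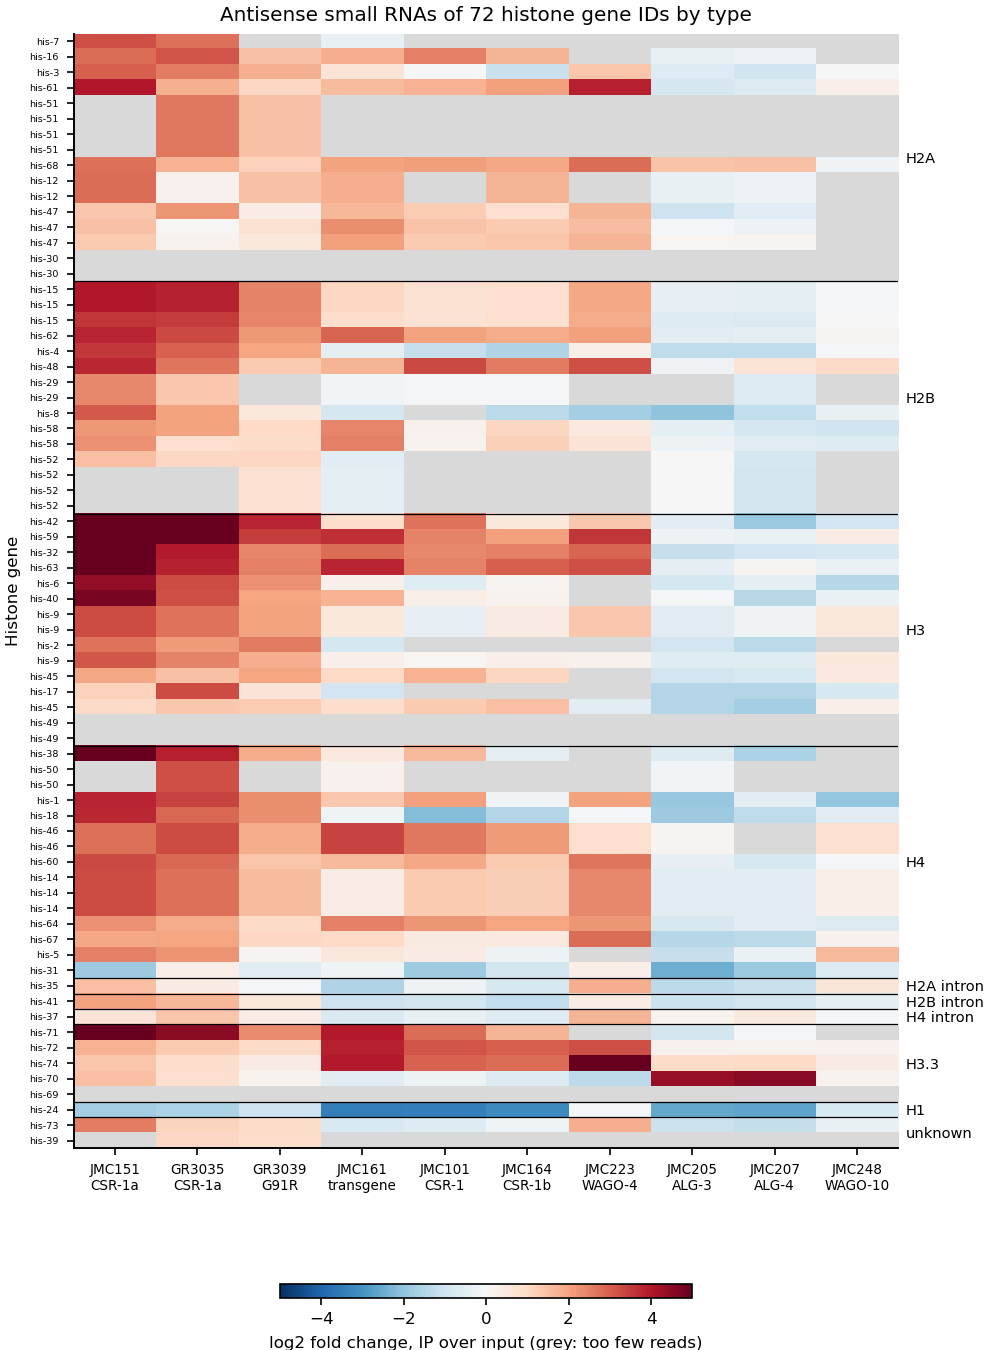
log2 fold change of IP over input for the antisense small RNAs of each of the 72 histone gene IDs (rows, grouped by type) in the 10 IPs (columns), red for higher in the IP, blue for lower and grey for too few reads. The core types are mostly red in JMC151, GR3035 and GR3039, and his-24 (H1) is blue in 9 of 10 columns and near 0 in WAGO-4.

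The core genes with the largest changes in the CSR-1a IPs encode H3. The antisense level of his-42 was 412.6 and 304.5 RPM in the JMC151 IPs, against 4.42 and 1.002 RPM in the inputs (log2 fold change 6.75, SE 0.58, limma adjusted p = 4.73e-15). For his-42 it was 433.9 and 503.2 RPM in the GR3035 IPs, against 4.585 and 24.71 RPM in the inputs (5.29, SE 0.61), and 164.2 and 109.7 RPM in the GR3039 IPs, against 4.778 and 15.54 RPM in the inputs (3.79, SE 0.38). In JMC164, his-42 had 17.58 and 3.651 RPM in the IPs and 12.24 and 2.226 RPM in the inputs, which overlap, and was not called. The IP values of the CSR-1a strains lay far above every input, while those of the CSR-1b strain did not.

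The H3 gene his-59 had the highest mean IP level among the H3 genes, and was enriched in 7 IPs. It had 809.9 and 552.5 RPM in the JMC151 IPs, against 15.74 and 11.59 RPM in the inputs (5.53, SE 0.58), and 1139 and 900.4 RPM in the GR3035 IPs, against 28.11 and 34.39 RPM in the inputs (4.98, SE 0.18). It was also enriched in GR3039 (3.48), JMC161 (3.67), WAGO-4 (3.59), JMC101 (2.48) and JMC164 (2.04). The H3 gene his-32 had 171 and 106.1 RPM in the JMC151 IPs, against 0.7539 and 0.334 RPM in the inputs, at most about 1 read each (6.47, SE 0.56). A fold this size rests on an input of next to no reads.

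Among the other core types, the H2B gene his-62 had 375.5 and 253.9 RPM in the JMC151 IPs, against 36.2 and 12.19 RPM in the inputs (3.81, SE 0.60), and 251 and 283.9 RPM in the GR3035 IPs, against 24.4 and 28.42 RPM in the inputs (3.29, SE 0.15). The H4 gene his-60 had 110.7 and 101.3 RPM in the JMC151 IPs, against 10.13 and 9.286 RPM in the inputs (3.32, SE 0.57). For his-62 and his-60 both IPs were above both inputs in each of JMC151, GR3035, GR3039, JMC161, JMC101 and JMC164. The H2B gene his-4 differed: it had 444.1 and 282.8 RPM in the JMC151 IPs, against 44.61 and 19.61 RPM in the inputs (3.54, SE 0.59), but 10.39 and 5.487 RPM in the JMC164 IPs, against 25.58 and 21.04 RPM in the inputs (-1.49, SE 0.32), so it was enriched in one and depleted in the other.

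Other clustered core genes had the largest changes of that class in the other IPs. In JMC101 the H2B gene his-48 had 49.89 and 59.75 RPM in the IPs, against 4.935 and 4.306 RPM in the inputs (3.31, SE 0.22). In JMC164 the H3 gene his-63 had 66.22 and 53.56 RPM in the IPs, against 13 and 3.253 RPM in the inputs (2.97, SE 0.50). In WAGO-4 the H2A gene his-61 had 37.48 and 39.79 RPM in the IPs, against 3.749 and 0.5122 RPM in the inputs (3.89, SE 0.65). The WAGO-10 IPs enriched only the H4 gene his-5, with 5.27 and 5.583 RPM against 1.511 and 0.7771 RPM in the inputs (1.61, SE 0.33), and the enriched IDs numbered 0 without WAGO-10 input 1 or IP 2 and 3 without IP 1. The H2A gene his-68 was enriched in 9 of the 10 IPs, ALG-3 included, where it had 14.1 and 13 RPM in the IPs against 3.809 and 5.234 RPM in the inputs (1.41, SE 0.15).

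The core genes with an intron were called in both directions. The H2A gene his-35 had 109.2 and 88.24 RPM in the WAGO-4 IPs, against 29.71 and 24.59 RPM in the inputs (1.82), was enriched in JMC151 (1.49) and was depleted in ALG-3, ALG-4 and JMC161. The H2B gene his-41 was enriched in JMC151 (2.01) and GR3035 (1.68) and depleted in JMC164 (-1.23), ALG-3 (-1.08) and JMC161 (-1.04), and the H4 gene his-37 in WAGO-4 (1.69) and GR3035 (1.38). Of the 2 genes of unassigned type, his-73 was enriched in JMC151 (2.58) and GR3035 (1.13) and depleted in ALG-3 (-1.08) and ALG-4 (-1.18), and his-39 was enriched in no IP.

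The linker histone gene his-24 went the other way. It had 66.93 and 100.2 RPM in the JMC101 IPs, against 998.6 and 776.6 RPM in the inputs (log2 fold change -3.41, SE 0.25). In JMC151 his-24 had 689.7 and 286.6 RPM in the IPs, against 2183 and 990.6 RPM in the inputs (-1.72, SE 0.60), and in GR3035 441.1 and 511.3 RPM against 1566 and 1328 RPM (-1.60, SE 0.21). It was depleted in 8 of the 10 IPs. In WAGO-10 its fold change was -0.76 (SE 0.22), and in WAGO-4 the IPs had 1306 and 1348 RPM against 1342 and 1457 RPM in the inputs (-0.08, SE 0.10). As a mean share of all antisense coding RPM, his-24 was 0.162% in the WAGO-4 IPs and 0.559% in the inputs. In all 10 strains both IPs lay below the higher input. The JMC151 call was lost without input 1 or without IP 2, with adjusted p up to 0.412, and the GR3039 call (-1.02) was lost without input 1 or without IP 2, where the fold change no longer reached -1.

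The H3.3 genes differed in the IPs where they were highest, though his-70, his-71, his-72 and his-74 were all enriched in JMC151. The gene his-70 was the histone gene with the largest change in ALG-3 and in ALG-4, with 237.2 and 239.7 RPM in the ALG-3 IPs, against 10.15 and 11.05 RPM in the inputs (4.37, SE 0.08, limma adjusted p = 1.08e-09), and 563.6 and 544.1 RPM in the ALG-4 IPs, against 35.64 and 14.29 RPM in the inputs (4.55, SE 0.39). Its sense reads were higher there as well, at 53.14 and 57.96 RPM in the ALG-3 IPs against 0.9306 and 0.914 RPM in the inputs, and at 51.77 and 56.19 RPM in the ALG-4 IPs against 3.482 and 1.067 RPM in the inputs. In JMC151 his-70 had 52.45 and 37.36 RPM in the IPs, against 13.82 and 16.03 RPM in the inputs (1.51, SE 0.58), a call lost without either IP.

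The H3.3 gene his-71 had its highest IP levels in the CSR-1a strains. It had 90.34 and 68.35 RPM in the JMC151 IPs, against 0.384 and 1.169 RPM in the inputs (5.52, SE 0.56), and 66.34 and 64.63 RPM in the GR3035 IPs, against 1.536 and 2.31 RPM in the inputs (4.52, SE 0.18). In JMC164 it had 8.467 and 2.754 RPM in the IPs, against 0.8584 and 0.7806 RPM in the inputs (1.71, SE 0.48). Both IP levels of his-71 in JMC151 and in GR3035 stood above those in JMC164, each in RPM of its own library. The gene was enriched in 6 IPs, JMC101, JMC161 and GR3039 included. Its enrichment was thus not particular to the IPs labelled CSR-1a. The H3.3 genes called enriched in JMC161, his-71 among them, had log2 fold changes of up to 3.97.

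The enrichment of his-72 and his-74 was not called different between JMC151 and JMC164 (log2 differences of -1.26 and -1.43). In JMC164 his-72 had 171.1 and 139.9 RPM in the IPs, against 19.94 and 17.15 RPM in the inputs (3.00, SE 0.21), while in JMC151 it had 40.22 and 17.84 RPM in the IPs, against 9.599 and 5.612 RPM in the inputs (1.74, SE 0.57). In JMC161 his-72 had 216.2 and 208.9 RPM in the IPs, against 12.04 and 15.13 RPM in the inputs (3.88, SE 0.16). The gene his-74 had 358.8 and 344.2 RPM in the WAGO-4 IPs, against 10.27 and 9.22 RPM in the inputs (5.04, SE 0.18). It had 269.7 and 218 RPM in the JMC164 IPs, against 36.89 and 31.13 RPM in the inputs (2.80, SE 0.21), and 49.42 and 34.28 RPM in the JMC151 IPs, against 28.41 and 8.017 RPM in the inputs (1.37, SE 0.59). The JMC151 calls of his-72 and his-74 were each lost without IP 1, IP 2 or input 2. The 5th H3.3 gene, his-69, had too few reads in every IP.

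**Figure D3:**
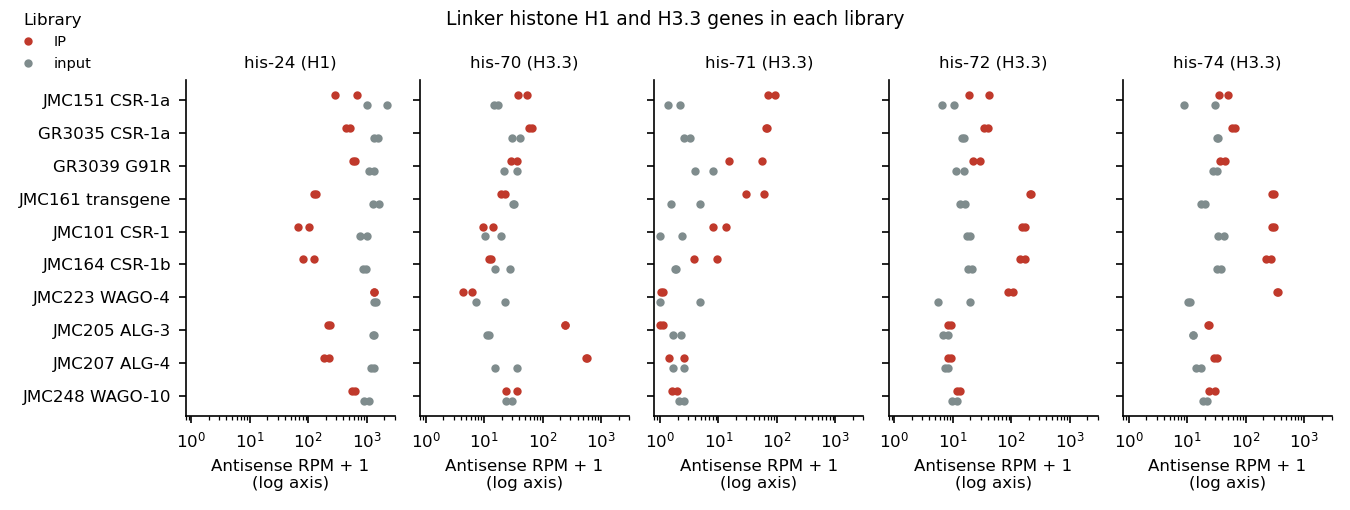
Antisense small RNA level (RPM + 1, log axis) of his-24 (H1) and of the H3.3 genes his-70, his-71, his-72 and his-74 in each IP library (red) and input library (grey) of the 10 strains. The IPs of his-24 lie below its inputs, apart from WAGO-4, where they overlap. By level, his-70 stands out in ALG-3 and ALG-4, his-71 in JMC151 and GR3035, and his-72 and his-74 in JMC101, JMC164, JMC161 and WAGO-4.

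Whether the enrichment itself differed between strains was tested over 8 libraries at a time, as the difference of log2 IP over input, called at an adjusted p under 0.05 in limma. Each library is scaled to its own total, and 3 of the 4 comparisons share the JMC151 libraries. Enrichment in JMC151 was higher than in JMC164 for 31 of 64 histone IDs and lower for 0, against 10.6% of all antisense features higher and 23.2% lower. It was higher for 10 of 13 H3, 8 of 15 clustered H2B, 7 of 13 H4 and 2 of 14 H2A IDs. In distinct profiles it was higher for 26 of 53. The largest differences were those of his-42 (6.25, SE 1.08), his-38, an H4 gene (5.93, SE 0.81), and his-18, an H4 gene (5.25, SE 1.18). Without JMC164 IP 2 or input 2 the calls numbered 10 and 16.

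Against ALG-3 (JMC205), enrichment in JMC151 was higher for 46 of 68 histone IDs and lower for 1 (17.4% and 11.2% of all features). The largest difference was that of his-32 (7.62, SE 0.48), and the gene with the lower enrichment in JMC151 was his-70 (-2.86, SE 0.37).

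Between the G91R mutant GR3039 and GR3035, enrichment was lower in GR3039 for 3 of 67 histone IDs and higher for 0 (1.59% and 0.143% of all features). They were his-17, an H3 gene (-2.63, SE 0.51), his-8, an H2B gene (-1.49, SE 0.29), and his-60 (-1.48, SE 0.27), and 33 histone IDs had an unadjusted p under 0.05. The median difference over the 67 IDs was -0.99, against -0.43 over all features. With the lysate as a block, which the labels allow since IP and input share a lysate, 17 histone IDs were called. The share of all features is not given here for the block, the unadjusted threshold or the fits with a library left out. These counts therefore do not show a loss particular to histones. Without GR3039 IP 1 there were 31 calls, while leaving out any of the other libraries apart from GR3035 IP 2 left 0, so the count depended on single libraries.

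For the transgene strain JMC161, enrichment was lower than in JMC151 for 31 of 67 histone IDs and higher for 2 (9.33% and 31.7% of all features). The difference was -5.89 (SE 0.67) for his-42, -5.02 (SE 0.78) for his-38 and -1.86 (SE 0.47) for his-59. The 2 higher were the H3.3 genes his-72 (2.15, SE 0.59) and his-74 (2.59, SE 0.69), calls that were lost in 6 and 5 of the 8 fits with a library left out. Without JMC161 IP 2 or input 2 the calls numbered 14 and 17.

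Genes that work with histones were called in other IPs. Of 14 genes for histone mRNA processing and histone chaperones, 14 were enriched in JMC101, JMC164 and WAGO-4 and 13 in JMC161, where 50.7% to 68.2% of all features were enriched, against 1 in JMC151 and 2 in GR3035, where 42.5% and 33.2% were. Enrichment of 12 of these 14 was lower in JMC151 than in JMC164. The stem-loop binding protein gene cdl-1 had 149.2 and 120.9 RPM in the JMC164 IPs, against 17.46 and 17.74 RPM in the inputs (2.86, SE 0.21), and 10.34 and 14.08 RPM in the JMC151 IPs, against 13.05 and 6.012 RPM in the inputs (0.40, SE 0.56). Of 14 genes of S phase, which act in DNA replication, 14 were enriched in JMC164, 13 had a lower enrichment in JMC151 than in JMC164, and 14 a higher one in JMC161 than in JMC151, against 23.2% lower and 31.7% higher among all features. Genes of a sperm list were also enriched in the CSR-1a IPs, with 28 of 29 measured genes in JMC151, 36 of 40 in GR3035 and 29 of 36 in GR3039 (42.5%, 33.2% and 16.7% of all features). In ALG-3 37 of 38 were enriched and in ALG-4 39 of 40 (28.9% and 33.1%). The counts were 25 of 39 in JMC161, 12 of 38 in JMC101 and 13 of 38 in JMC164 (56%, 54.5% and 50.7%). They were 10 of 28 in WAGO-10 and 1 of 8 in WAGO-4 (10.4% and 68.2%). The H2A variant gene htz-1, which the his- rule leaves out, had 79.05 and 86.5 RPM in the WAGO-4 IPs, against 1.984 and 0 RPM in the inputs (5.60, SE 0.61).

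On the mRNA side, 59 of the 72 IDs had enough counts to test, and levels are CPM scaled by TMM. PolyA selection holds back mRNAs without a tail, so the level of a clustered core gene is that of the fraction captured. The libraries are of whole worms, in which fewer cells of a type and less RNA per cell cannot be told apart.

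At 25 C, core histone mRNA was higher in JMC164 than in N2. Over the 44 distinct profiles of the clustered core genes it summed to 188.4, 267.9 and 171.1 CPM in JMC164, against 99.74, 108.2 and 91.21 CPM in N2, and the groups did not overlap. In edgeR's quasi-likelihood test, 38 of the 59 histone IDs were higher in JMC164 and 1 was lower, against 17.4% of all genes higher and 11.2% lower, and in distinct profiles 27 of 48 were higher. The median log2 fold change was 1.22 over the histone IDs and 0.05 over all genes. By type, 11 of 14 clustered H2A, 8 of 10 H2B, 8 of 13 H3 and 8 of 12 H4 IDs were higher. Without N2 25 C replicate 1 or JMC164 25 C replicate 2 the calls numbered 20 and 22.

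The largest change was that of the H3 gene his-17, with 1.831, 8.01 and 3.627 CPM in JMC164 at 25 C, against 1.122, 0.595 and 0.245 CPM in N2 (log2 fold change 2.81, SE 0.59, edgeR adjusted p = 0.00534). Every mutant library was above every N2 library, but the mutant values differed several-fold. The H2B gene his-8 had 7.63, 12.98 and 5.349 CPM in JMC164, against 2.157, 0.680 and 1.143 CPM in N2 (2.74, SE 0.51). The H3 gene his-42, whose antisense RNA changed most in JMC151, had 4.12, 5.687 and 13.78 CPM in JMC164, against 1.38, 1.276 and 1.225 CPM in N2 (2.64, SE 0.44). The H2A gene his-7 (2.28, SE 0.69) and the H4 gene his-18 (2.27, SE 0.43) came next, and for his-7 the JMC164 value in replicate 3, 1.632 CPM, lay within the N2 range and the call was lost in 5 of the 6 fits with a 25 C library left out.

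The histone genes outside the clustered core changed less at 25 C. The H1 gene his-24 had 41.81, 55.03 and 42.34 CPM in JMC164, against 27.09, 28.23 and 25.64 CPM in N2 (0.82, SE 0.28, edgeR adjusted p = 0.0477), a call lost whenever a 25 C library was left out. The H4 gene with an intron, his-37, rose to 132.1, 145.8 and 148.4 CPM in JMC164, against 77.82, 102.7 and 73 CPM in N2 (0.79, SE 0.22). The H3.3 gene his-72 fell, with 121.8, 114.3 and 89.94 CPM in JMC164 against 170.7, 158.8 and 170.3 CPM in N2 (-0.57, SE 0.14), and was the histone gene called lower. The H3.3 gene his-71 was higher (0.75, SE 0.22), while his-74 (-0.53, SE 0.34), his-70 (-0.44, SE 0.26), his-69 (1.10, SE 0.41) and his-73 (-0.42, SE 0.58) did not pass the test.

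**Figure D4:**
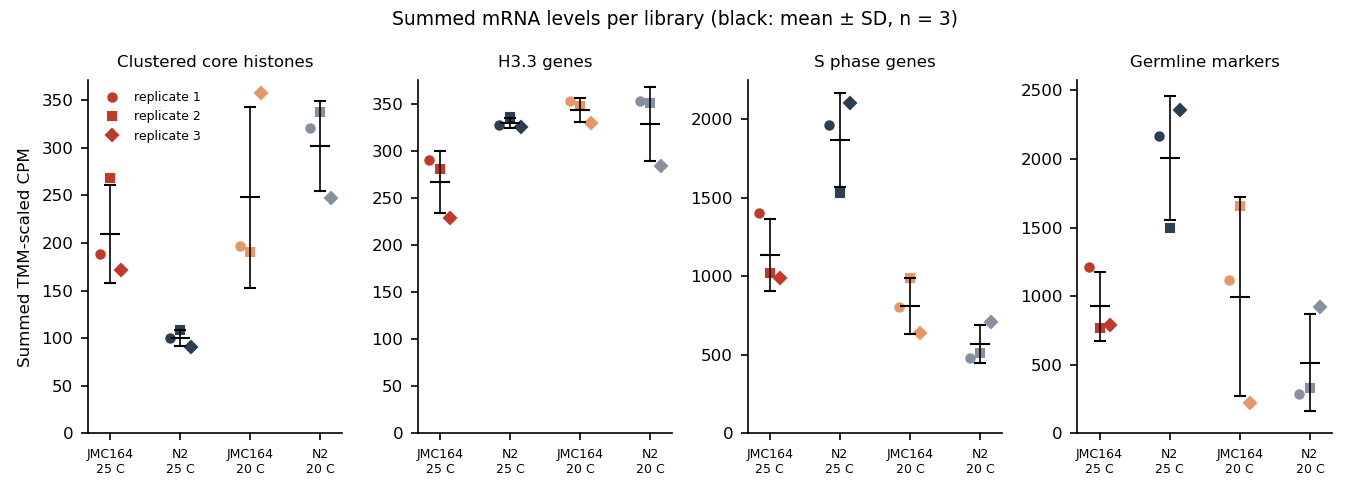
Summed mRNA level in CPM of the clustered core histone genes, the H3.3 genes, 14 S phase genes and 11 germline markers in each library of JMC164 and N2 at 25 C and at 20 C, with the mean ± SD of 3 libraries in black. The core histones of JMC164 at 25 C lie at 171.1 CPM or above, over N2 at 25 C, while the S phase genes lie below N2.

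Other gene lists also differed between these libraries. At 25 C, 9 of the 14 S phase genes were lower in JMC164, against 11.2% of all genes. The list summed to 1400, 1020 and 989.5 CPM in JMC164, against 1964, 1532 and 2103 CPM in N2. The 11 germline markers summed to 770.4 to 1212 CPM in JMC164 and 1495 to 2360 CPM in N2, although no marker of that list passed the edgeR test by itself, and none was at 0. The 13 oocyte markers summed to 2326 to 3773 CPM in JMC164 and 3952 to 6900 CPM in N2, again with no marker passing by itself. Of 37 sperm genes measured, 8 were lower and 0 higher, against 11.2% and 17.4% of all genes. Of 15 soma genes, 3 were lower and 1 higher. The part these differences have in the histone values was not tested. The mRNA of cdl-1 was lower in JMC164, at 66.31, 44.94 and 40.89 CPM against 132.9, 85.63 and 138.7 CPM in N2 (-1.19, SE 0.29). Of 10 other histone genes measured, which the his- rule leaves out, 2 were higher, the H1 genes hil-1 (1.52) and hil-3 (1.05), and 2 lower, htz-1 (-0.76) and hil-2 (-0.66). With 10 genes these counts are close to the shares of all genes, 17.4% higher and 11.2% lower.

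At 20 C no histone ID passed the edgeR test between JMC164 and N2, with 0 of 59 higher and 0 lower, against 1.97% and 5.17% of all genes. There were 6 IDs with an unadjusted p under 0.05, and DESeq2 called 2, both lower in JMC164. The clustered core genes summed to 196.8, 190 and 357.9 CPM in JMC164, against 321, 337.1 and 247.6 CPM in N2, and the groups overlapped through replicate 3 of each. These are the libraries that stood apart by their germline markers. Without JMC164 20 C replicate 3, 2 IDs were higher and 10 lower, and without both of these libraries, in a fit chosen after seeing the data, 2 were higher and 27 lower of 62. The number of histone calls at 20 C thus depended on those libraries, and their part in it was not tested further. The share of all genes called in these refits is not given here, so the counts do not show a difference particular to histones.

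In N2 itself core histone mRNA was lower at 25 C than at 20 C. Of the 59 IDs, 46 were lower at 25 C and 4 higher, against 30.4% of all genes lower and 28.3% higher, with a median log2 fold change of -1.27 against -0.03 over all genes. The clustered core genes summed to 99.74, 108.2 and 91.21 CPM at 25 C and 321, 337.1 and 247.6 CPM at 20 C. The H3 gene his-17 was lowest, with 1.122, 0.595 and 0.245 CPM at 25 C against 12.48, 11.59 and 11.71 CPM at 20 C (-4.19, SE 0.58), followed by his-7 (-3.88), his-2, an H3 gene (-3.76), his-8 (-3.65) and his-3, an H2A gene (-3.50). Leaving out both 20 C libraries that stood apart gave 4 higher and 50 lower, in a fit whose share of all genes called is not given here.

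The 4 histone genes higher in N2 at 25 C were his-38, his-67 and his-68 of the clustered core and the H3.3 gene his-74. The H4 gene his-38 had 12.94, 15.65 and 12.41 CPM at 25 C against 3.092, 4.561 and 3.333 CPM at 20 C (1.88, SE 0.22). For his-74 the values were 103.1, 112.6 and 101.3 CPM at 25 C against 33.59, 37.44 and 39.15 CPM at 20 C (1.51, SE 0.35). In the same comparison the S phase genes rose, 13 of 14 being higher, against 28.3% of all genes. So did 13 of 13 oocyte markers and 10 of 11 germline markers. The core histone mRNAs and the S phase genes thus went opposite ways.

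In JMC164 histone genes moved in both directions with temperature. Of the 59 IDs, 8 were higher and 12 lower at 25 C, against 26.8% and 24.4% of all genes, with a median of -0.11. The clustered core genes summed to 188.4, 267.9 and 171.1 CPM at 25 C and 196.8, 190 and 357.9 CPM at 20 C, which overlap. The gene his-38 had 14.12, 11.7 and 15.87 CPM at 25 C against 2.555, 2.278 and 2.823 CPM at 20 C (2.49, SE 0.23), and his-42 was higher too (1.68, SE 0.42). The lower genes were led by his-70, with 5.875, 5.127 and 4.443 CPM at 25 C against 23.4, 23.47 and 11.43 CPM at 20 C (-1.89, SE 0.26), his-73 (-1.84, SE 0.53) and his-7 (-1.63, SE 0.61). Without both 20 C libraries that stood apart, 19 were higher and 12 lower, and without JMC164 25 C replicate 1 or 3 the calls numbered 12 and 10. The share of all genes called in these fits is not given here.

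**Figure D5:**
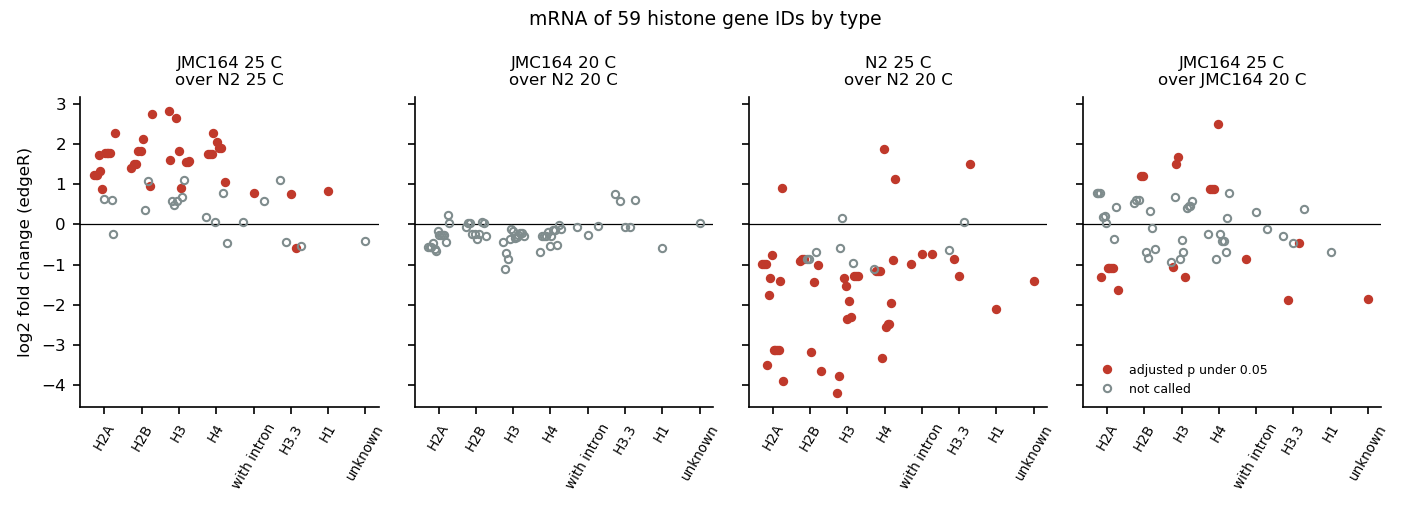
log2 fold change of mRNA for the 59 histone IDs, by type, in JMC164 over N2 at 25 C and at 20 C, and at 25 C over 20 C in N2 and in JMC164; filled red points pass an edgeR adjusted p under 0.05. The core types lie mostly above 0 for JMC164 at 25 C, with 38 IDs of all types called higher. They lie mostly below 0 for N2 at 25 C over 20 C, with 46 IDs called lower.

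The response to temperature differed between the strains. In the test of that difference, 34 of the 59 IDs had a higher log2 ratio of 25 C to 20 C in JMC164 than in N2 and 0 a lower one, against 13.5% and 9.26% of all genes, with a median of 1.47 against 0.04 over all genes. The largest differences were those of his-17 (3.26, SE 0.75), his-8 (3.03, SE 0.67), his-42 (3.00, SE 0.62), his-2 (2.69, SE 0.56) and his-4 (2.48, SE 0.57). None of the 5 H3.3 genes passed, and his-74 (-1.13, SE 0.48) and his-70 (-1.03, SE 0.36) had values below 0. For cdl-1 the difference was -1.82 (SE 0.41), and 8 of the 14 S phase genes had a lower ratio in JMC164. This test shares its 12 libraries with the comparisons above, so its direction is not separate evidence. The count fell to 13 without JMC164 20 C replicate 2 and without JMC164 25 C replicate 2, to 15 without N2 25 C replicate 1, to 16 without N2 20 C replicate 2, to 18 without JMC164 20 C replicate 1, to 20 without N2 25 C replicate 3 and to 21 without N2 20 C replicate 1. Without both 20 C libraries that stood apart, 47 were higher and 3 lower. For none of these fits is the share of all genes called given here.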

How the data were processed

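The deposited small RNA tables hold RPM per feature, which the authors scaled per library and to which 0.01 was added; this was read from the values, and the offset was taken off. Reads per library were estimated from the RPM of 1 read. The deposited mRNA tables hold raw counts per gene, made by the authors. STAR, cutadapt, FastQC and DESeq2 are named in the submitters' processing notes, while the sources used here do not give the genome build or the rule for reads that match several copies. Per the labels' protocols, small RNA was treated with a 5' polyphosphatase and mRNA libraries were directional and polyA-selected.

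Antisense and sense features with at least 10 estimated reads in at least 2 libraries were tested on log2(RPM + 1) with limma-trend (limma 3.58.1, R 4.3.3), IP against input in each strain; a fold change on this scale understates that of low genes. Counts were tested with edgeR 4.0.16 (quasi-likelihood, TMM, filterByExpr) over all 12 libraries, with DESeq2 1.42.0 as an alternative. P-values were adjusted over all features of a fit by Benjamini-Hochberg, with a threshold of 0.05. The methods were checked on simulated data with known changes in a small set of features and a single set spread between replicates. The real IPs shifted many more features and their replicates differed more in some strains, so this check does not cover them.

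Per the labels, an IP and the input with its number share a lysate, so a blocked fit was an alternative; the correlation of their deviations was -0.015 to 0.406. The mRNA numbers pair nothing in the labels. Other alternatives were pseudocounts of 0.1 and 5, no filter on low values, TMM scaling of RPM, and leaving out each library.

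Members and gene lists were chosen with earlier results of these data known. Genes named were the 3 called with the largest enrichment in each IP, the member of each type with the highest mean IP RPM, the 5 called with the largest change in each mRNA comparison, his-24, his-35, his-69 to his-74 and cdl-1; other genes named, such as his-31, were picked after their values were seen. Histone types follow the standard gene nomenclature; the gene lengths of all 61 clustered IDs fit their type, and his-39 and his-73 were left unassigned. The labels list 3 GR3043 inputs, which are not analysed here.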

Additional observations from a re-analysis of the deposited data

Results flagged for a closer look

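The results here were picked out because 2 strains, or 2 temperatures, differed in the same measure by a test of the difference itself. No group had 4 or more libraries, so no library could be tested for standing apart within its group. Values are differences of log2 IP over input between strains in limma, or of the log2 ratio of 25 C to 20 C between JMC164 and N2 in edgeR.

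Between JMC151 and JMC164, 31 histone IDs differed. Among the genes followed in every comparison these included his-35 (2.28), his-59 (3.48), his-60 (2.03), his-70 (2.19) and his-71 (3.81), all higher in JMC151. Leaving out single libraries ended the call of his-60 and of his-70 in 4 of 8 fits each and that of his-35 in 1.

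Between JMC151 and JMC205 (ALG-3), 47 differed. Enrichment was higher in JMC151 for his-35 (2.81), his-59 (5.78), his-60 (3.72), his-62 (4.33) and his-71 (6.42), and lower for his-70 (-2.86), the H3.3 gene that led in the ALG-3 IPs.

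Between GR3039 and GR3035, 3 differed, among them his-60 (-1.48). Between JMC161 and JMC151, 33 differed, with his-35 (-2.99), his-59 (-1.86), his-60 (-1.68) and his-70 (-2.09) lower in JMC161 and his-72 (2.15) and his-74 (2.59) higher. The call of his-59 was lost in 3 of the 8 fits without a library and that of his-60 in 3.

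In the mRNA, 34 IDs differed between the strains in their response to temperature, among them his-2 (2.69), his-4 (2.48), his-8 (3.03), his-17 (3.26), his-24 (1.41) and his-42 (3.00), all higher in JMC164. The call of his-24 was lost in 6 of the 12 fits without a library.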

How the results depend on the processing

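Of 221 recomputed counts of histone calls, 174 stayed within 1.5 times and 47 did not. The direction behind these counts was not compared. Of 2188 recomputed fold changes of named genes, 0 changed sign where a call was made in either fit. Of 66 summed levels 63 moved by less than the spread between replicates. The calls that moved were these. Without the filter on low values, JMC151 enriched 0 IDs (49 had an unadjusted p under 0.05, limma), JMC151 against JMC164 gave 13, GR3039 against GR3035 0 and JMC161 against JMC151 15. With a pseudocount of 5, JMC164 enriched 14, ALG-3 (JMC205) 1 and WAGO-10 (JMC248) 0, and GR3039 against GR3035 gave 16; with 0.1, JMC151 against JMC164 gave 20 and GR3039 against GR3035 0. TMM scaling left 7 in WAGO-4 (JMC223) and 39 of 52 in JMC151. With the replicate block GR3039 against GR3035 gave 17 in place of 3, and for mRNA, where the numbers share nothing but a number (correlations -0.405 to 0.322), it gave 23 for the interaction, 35 at 25 C, 0 at 20 C, 45 for N2 and 20 for JMC164 with temperature; it moved no other count by over 1.5 times. DESeq2 called 2 at 20 C. With both 20 C libraries that stood apart left out, chosen after seeing the data, 29 were called at 20 C and 31 for JMC164 with temperature. The causes were not tested. For these alternative fits, and for those with libraries left out, the share of all features called is not given here. Their counts show only how far the histone calls depended on the processing.

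With 1 library left out, enriched IDs ranged over 16 to 26 in JMC101, 19 to 53 in JMC151, 21 to 28 in JMC164, 2 to 3 in JMC207, 0 to 3 in JMC248, 10 to 27 in JMC223, 50 to 56 in GR3035, 23 to 31 in JMC161 and 29 to 45 in GR3039, with 2 throughout in JMC205. Calls ranged over 10 to 34 for JMC151 against JMC164, 33 to 52 for JMC151 against JMC205, 0 to 31 for GR3039 against GR3035, 14 to 35 for JMC161 against JMC151, 0 to 12 at 20 C, 20 to 33 at 25 C, 40 to 49 for N2 and 10 to 30 for JMC164 with temperature, and 13 to 50 for the interaction. With 2 libraries a group, the one left alone is assumed to vary like the other group. Depth limits genes with few input reads, above all in JMC223 and JMC151, where 1 read is worth 3.07 and up to 0.768 RPM.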
